A study of Mus musculus with 12 samples.

Results

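The replication-dependent histone genes are the gene copies, gathered in clusters, that supply the linker histone H1 and the core histones H2A, H2B, H3 and H4 for new chromatin. They were taken as every gene symbol that starts with Hist1, Hist2, Hist3 or Hist4 followed by a class name, and 68 of the 19510 symbols in either table met this rule. By class they were 6 H1, 18 H2A, 19 H2B, 12 H3 and 13 H4 genes. The Hist1 cluster held 54 of them, Hist2 held 10, Hist3 held 3 and Hist4 held 1. Of the 66 with a coding model in the mm9 annotation, 54 lay on chromosome 13, 9 on chromosome 3, 2 on chromosome 11 and 1 on chromosome 6.

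RNA was measured by sequencing in the femurs of male mice aged 5 weeks, on a mixed background, with the metaphysis (the flared part of the shaft under the growth plate) and the diaphysis (the mid-shaft) taken apart. Dlx3Oc-cKO mice, in which the homeobox gene Dlx3 was conditionally deleted, were compared with wild-type Dlx3+/+ mice, with 3 libraries in each of the 4 groups of region and genotype. The labels do not spell out the deleting allele, the cells in which it acts or whether wild-type mice carried it. Values are RPKM, reads scaled to transcript length and to the mapped reads of the library, summed over the transcripts of a gene, and library numbers only name the samples.

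Histone supply is tied to DNA replication: these genes are switched on as cells enter S phase, and their messages are removed when replication ends. Most of the messages carry no poly(A) tail. They end a few bases after a conserved stem-loop, which the stem-loop binding protein Slbp holds for processing, export, translation and decay. Some members also give longer, polyadenylated messages in cells that have stopped dividing. A library made by poly(A) capture therefore sees the stem-loop messages poorly, and the labels name a TruSeq RNA kit without stating a selection step.

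The stem-loop is the sequence that sets these genes apart, so the 3′ ends of members whose values are given below are shown. Each line gives 28 bases in the sense direction from the mm9 genome, with the stem-loop in capitals between 6 flanking bases on either side.
Hist1h1c: ccaaaaGGCTCTTTTCAGAGCCaccact
Hist1h2bc: tccaaaGGCTCTTTTCAGAGCCacccac
Hist1h2bk: accaaaGGCTCTTTTAAGAGCCactaaa
Hist2h2aa2: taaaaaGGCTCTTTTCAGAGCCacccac
Hist1h3b: cccaaaGGCTCTTTTCAGAGCCacccac
Hist1h4i: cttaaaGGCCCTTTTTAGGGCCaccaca
Hist1h4n: actaaaGGCCCTTTTCAGGGCCatccaa
Hist1h4b: acaaaaGGTCCTTTTCAGGACCactcac
On the plus strand of mm9, Hist1h1c was read at chr13:23831375-23831402, Hist1h2bc at chr13:23776510-23776537, Hist1h2bk at chr13:22128163-22128190, Hist1h3b at chr13:23844683-23844710 and Hist1h4b at chr13:23849229-23849256. On the minus strand, Hist2h2aa2 was read at chr3:96043701-96043728, Hist1h4i at chr13:22132829-22132856 and Hist1h4n at chr13:21923661-21923688. The pattern GG, any 2 bases, CTT, any base, T, any base, AG, any 2 bases and CC was searched on the sense strand in the 100 bases after each annotated stop codon. It was found in 63 of the 66 members with a coding model (95.5%), against 8 of 22159 other protein-coding genes (0.0361%). The stem read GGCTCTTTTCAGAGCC in 39 members of the classes H1, H2A, H2B and H3. No H4 gene had that form, and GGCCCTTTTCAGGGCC was found in 8 H4 genes and in no other class. No match lay in the window of Hist1h2an, Hist2h2bb or Hist2h2be.

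The annotation also placed the transcript ends unequally. In 15 members, called those with a long 3′ end here, the annotated transcript ran at least 300 bases beyond the stop codon. A stem-loop match lay before that end in 13 of them, and the exceptions were Hist2h2bb and Hist2h2be. In 51 members, those with a short 3′ end, the transcript ended closer, and 2 pseudogene members had no coding model. Hist1h1c ran 879 bases past its stop codon, Hist1h2bc 322 and Hist2h2be 2192, whereas Hist1h2bk ran 32, Hist1h3b 96 and Hist1h4n 80. The 300 base limit was chosen after the values were seen, and the groups it makes are compared only as a description.

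RefSeq promoters (GRCm38.p6, 250 bases before to 50 bases after the start) were matched for 62 members with 63 promoters. The box CCAAT, searched on both strands, stood in 54 of the 63 (85.7%), against 37.4% of all 32851 promoters. It stood in every promoter of the classes H1, H2A, H2B and H3 and in 3 of 12 H4 promoters. TATAAA, also on both strands, was in 55.6% of the members' promoters and in 13.6% of all. AAACACA, a box known from H1 promoters, was in 5 of the 6 H1 promoters and in 7.18% of all. The promoters of Hist1h1c (now H1f2) and Hist1h4i (now H4c9) are printed as examples of an H1 and an H4 gene, with the 3 motifs in capitals. TATAAA, marked only in Hist1h4i, stood in 66.7% of the H1 and 66.7% of the H4 promoters, so it is no class difference. The motifs do not overlap in either sequence, and a match is no evidence of binding.
Hist1h1c: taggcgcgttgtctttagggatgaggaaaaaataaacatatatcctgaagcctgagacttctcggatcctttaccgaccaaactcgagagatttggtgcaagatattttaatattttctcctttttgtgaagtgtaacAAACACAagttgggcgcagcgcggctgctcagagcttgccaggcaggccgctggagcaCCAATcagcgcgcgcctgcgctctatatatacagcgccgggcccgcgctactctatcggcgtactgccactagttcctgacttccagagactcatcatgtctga
Hist1h4i: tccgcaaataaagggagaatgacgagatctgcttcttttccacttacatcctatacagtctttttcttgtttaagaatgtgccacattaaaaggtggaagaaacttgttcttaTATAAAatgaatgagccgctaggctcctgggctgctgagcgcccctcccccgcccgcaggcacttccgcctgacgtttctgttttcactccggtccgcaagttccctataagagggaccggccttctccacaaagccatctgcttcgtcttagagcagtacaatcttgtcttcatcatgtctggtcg
In GRCm38.p6 the first lies at chr13:23738557-23738856 on the plus strand and the second at chr13:22041313-22041612 on the minus strand.

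Depth, read from the spacing of low values, was 24.7 to 34.6 M reads per library in the metaphysis and 18.4 to 53.6 M in the diaphysis (M, mega). At these depths 1 RPKM of a message of 500 bases stands for 9.2 to 26.8 reads. Dlx3 was at 1.98, 2.80 and 3.24 RPKM in metaphysis cKO libraries, against 8.37, 8.90 and 10.1 in WT, and at 0.763, 1.55 and 1.17 in diaphysis cKO libraries, against 3.22, 7.64 and 13.1 in WT. A list of 9 osteoblast genes summed to 4975 RPKM or more in every library, and 11 erythroid genes to 34438 or more, so the libraries held bone and marrow RNA. They held muscle RNA as well, since 7 skeletal muscle genes summed to 1572 to 8282 RPKM. That sum was highest in metaphysis cKO 2, which also had the lowest sum of the S phase genes given below. In such bulk samples fewer cells of a type and less RNA per cell cannot be told apart. A pair of diaphysis libraries stood apart. Diaphysis cKO 1 had the lowest depth and the highest histone sum, and diaphysis WT 1 had the lowest osteoblast sum and 32.6% of its summed RPKM in globin genes, against 15.1% to 26.5% in the other 5. Both carry lower identification numbers in their titles than the other diaphysis samples, and the header of that table names a pair of runs without saying which library came from which.

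Over all 68 members, summed histone RNA was low in every library and was highest in diaphysis cKO 1. In the metaphysis the sums were 239.8, 267 and 332 RPKM in cKO libraries, against 332, 202 and 255 RPKM in WT libraries. The groups overlapped fully, and the mean was 279.8 ± 47.6 RPKM in cKO and 263 ± 65.4 RPKM in WT (SD, n = 3 each). In the diaphysis the sums were 464, 159.7 and 221 RPKM in cKO libraries, against 169.8, 191 and 126 RPKM in WT libraries. cKO 1 stood above every other library of the study, cKO 3 above the 3 WT libraries, and cKO 2 within them. The diaphysis log2 ratio of cKO to WT means was 0.80. It was 0.23 without cKO 1 and 0.26 with both cKO 1 and WT 1 left out. The metaphysis log2 ratio was 0.09. The members made up 0.110% of the summed RPKM of diaphysis cKO 1, 0.0328% to 0.0529% of the other diaphysis libraries and 0.0461% to 0.0826% of the metaphysis libraries. The 2 tables were made separately, so levels set across regions are a description.

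**Figure D1:**
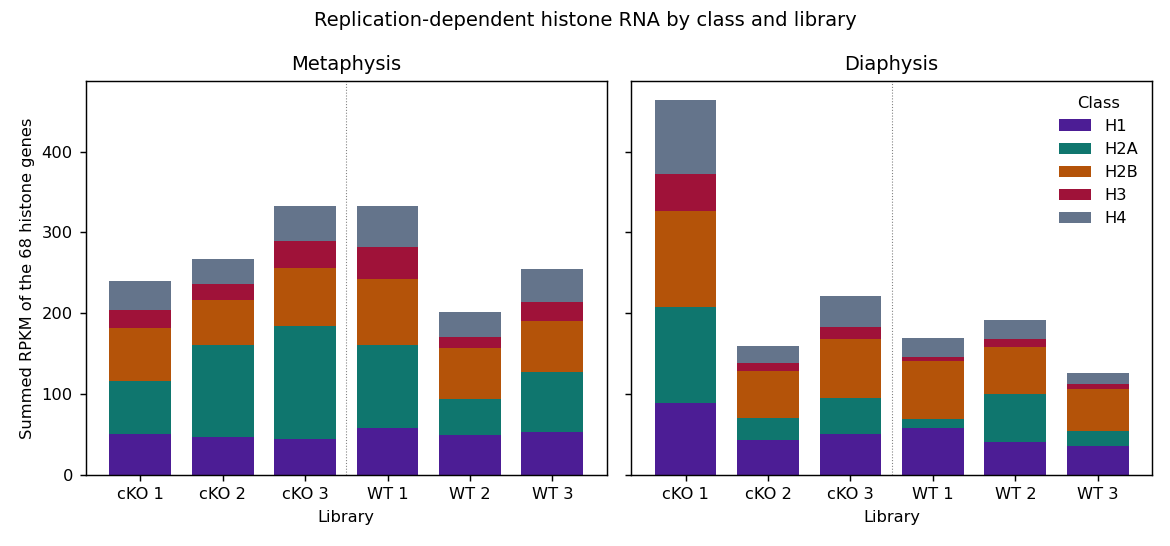
Summed RPKM of the 68 histone genes in each library, stacked by class, with cKO libraries left of WT libraries in each region. Diaphysis cKO 1 reaches 464 RPKM, and the other 11 libraries lie between 126 and 332 RPKM.

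Few members carried about as much signal as all the others together. Averaged over each region's 6 libraries, 7 members reached 10 RPKM in the metaphysis, with 54.4% of the histone sum, and 5 in the diaphysis, with 47.3%, while 4 and 3 members stayed under 0.1 RPKM. The 3 members known from testis, the H1 gene Hist1h1t, the H2A gene Hist1h2aa and the H2B gene Hist1h2ba, summed to at most 0.581 RPKM in any library.

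Among the linker histones, which sit on the DNA between nucleosomes, Hist1h1c was by far the highest. It stood at 44.9, 41.0 and 34.4 RPKM in metaphysis cKO libraries, against 46.5, 41.2 and 42.7 RPKM in WT. In the diaphysis it stood at 65.2, 37.1 and 40.0 RPKM in cKO libraries, against 47.4, 35.9 and 29.5 RPKM in WT. The groups overlapped in both regions, and cKO 1 was the highest library. Hist1h1b, another S phase H1 gene, was at 13.8, 3.28 and 5.99 RPKM in diaphysis cKO libraries, against 5.93, 2.15 and 3.04 RPKM in WT, and at 3.12, 2.96 and 5.09 in metaphysis cKO libraries, against 6.38, 3.64 and 5.36 in WT. Hist1h1e was between 0.920 and 3.33 RPKM in all libraries, with its maximum again in diaphysis cKO 1. H1 genes summed to 88.9 RPKM in diaphysis cKO 1, against 35.3 to 57.9 RPKM in the other 5.

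In the H2A class, whose protein pairs with H2B in the nucleosome, the leading members were the near-identical copies Hist2h2aa1 and Hist2h2aa2. Hist2h2aa2 was listed at 35.0, 2.82 and 10.6 RPKM in diaphysis cKO libraries, against 0.000306, 23.1 and 0.0133 RPKM in WT. How reads shared by these copies were divided is not given in the sources used here, so the pair is also given as a sum. Together the 2 genes stood at 49.5, 14.9 and 21.6 RPKM in diaphysis cKO libraries, against 3.73, 36.3 and 12.7 RPKM in WT. In the metaphysis the pair stood at 38.2, 52.2 and 46.8 RPKM in cKO libraries, against 50.3, 23.8 and 32.4 RPKM in WT. The groups overlapped in both regions. Hist1h2af had the widest spread of the members that averaged 1 RPKM or more. It was at 1.44, 27.1 and 38.8 RPKM in metaphysis cKO libraries, against 7.84, 1.41 and 5.65 RPKM in WT, and at most at 2.69 RPKM in the diaphysis. A pair of cKO libraries were high and the third was as low as the lowest WT library. The H2A sum was the widest of the classes, from 10.7 RPKM in diaphysis WT 1 to 141 RPKM in metaphysis cKO 3.

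The H2B class was led by Hist1h2bc and Hist1h2bk, which differed in steadiness. Hist1h2bc, known to give a polyadenylated message, was at 22.5, 25.1 and 22.9 RPKM in metaphysis cKO libraries, against 22.6, 22.7 and 22.1 RPKM in WT. In the diaphysis it was at 29.7, 22.6 and 25.5 RPKM in cKO libraries, against 23.0, 25.3 and 19.3 RPKM in WT, so that all 12 libraries lay close together and the groups overlapped. Hist1h2bk, with a short 3′ end in the annotation, was at 28.2, 11.5 and 15.3 RPKM in diaphysis cKO libraries, against 15.9, 10.8 and 9.21 RPKM in WT. In the metaphysis it was at 23.8, 11.6 and 15.2 RPKM in cKO libraries, against 23.6, 16.2 and 16.1 RPKM in WT. Hist2h2bb was at 14.1, 7.23 and 7.95 RPKM in diaphysis cKO libraries, against 10.5, 3.90 and 8.04 RPKM in WT, again with overlap. The copies Hist1h2bq and Hist1h2br were listed at the same values in every library, 0.722 to 1.51 RPKM, and count as 1 measurement.

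The H3 and H4 genes, whose proteins form the central tetramer of the nucleosome, stood furthest above the other libraries in diaphysis cKO 1. The ratio of its class sum to the mean of the other 5 diaphysis libraries was 4.98 for H3, 3.78 for H4, 3.69 for H2A, 1.96 for H1 and 1.91 for H2B. Hist1h3b was at 11.2, 1.55 and 1.96 RPKM in diaphysis cKO libraries, against 1.06, 1.52 and 0.000862 RPKM in WT. The cKO libraries were all above the WT libraries, but cKO 2 passed WT 2 by little. In the metaphysis Hist1h3b was at 8.01, 3.97 and 9.38 RPKM in cKO libraries, against 12.5, 3.51 and 9.38 RPKM in WT, with full overlap. Hist2h3c1, whose annotated transcript overlaps that of Hist2h2aa1, was at 5.73, 2.08 and 3.62 RPKM in diaphysis cKO libraries, against 0.00416, 1.96 and 0.235 RPKM in WT. The pseudogene-labelled Hist2h3c2-ps stayed between 1.72 and 4.92 RPKM in all 12 libraries. H3 genes summed to 45.5, 9.77 and 14.7 RPKM in diaphysis cKO libraries, against 5.62, 9.20 and 6.35 RPKM in WT.

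Hist1h4i was the highest H4 gene. It was at 14.9, 6.63 and 6.74 RPKM in diaphysis cKO libraries, against 5.92, 6.16 and 2.64 RPKM in WT, and at 10.9, 11.6 and 10.5 RPKM in metaphysis cKO libraries, against 12.5, 8.31 and 10.5 RPKM in WT. In the diaphysis the groups did not overlap, with cKO 2 and cKO 3 just above WT 2. Hist1h4n was at 11.7, 2.14 and 10.8 RPKM in diaphysis cKO libraries, against 0.0265, 5.27 and 1.67 RPKM in WT. Hist1h4d was at 1.65, 2.14 and 1.89 RPKM in metaphysis cKO libraries, against 4.26, 2.76 and 2.39 RPKM in WT, where no cKO library reached a WT library. H4 genes summed to 92.1, 21.9 and 38.7 RPKM in diaphysis cKO libraries, against 23.7, 23.5 and 13.9 RPKM in WT.

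**Figure D2:**
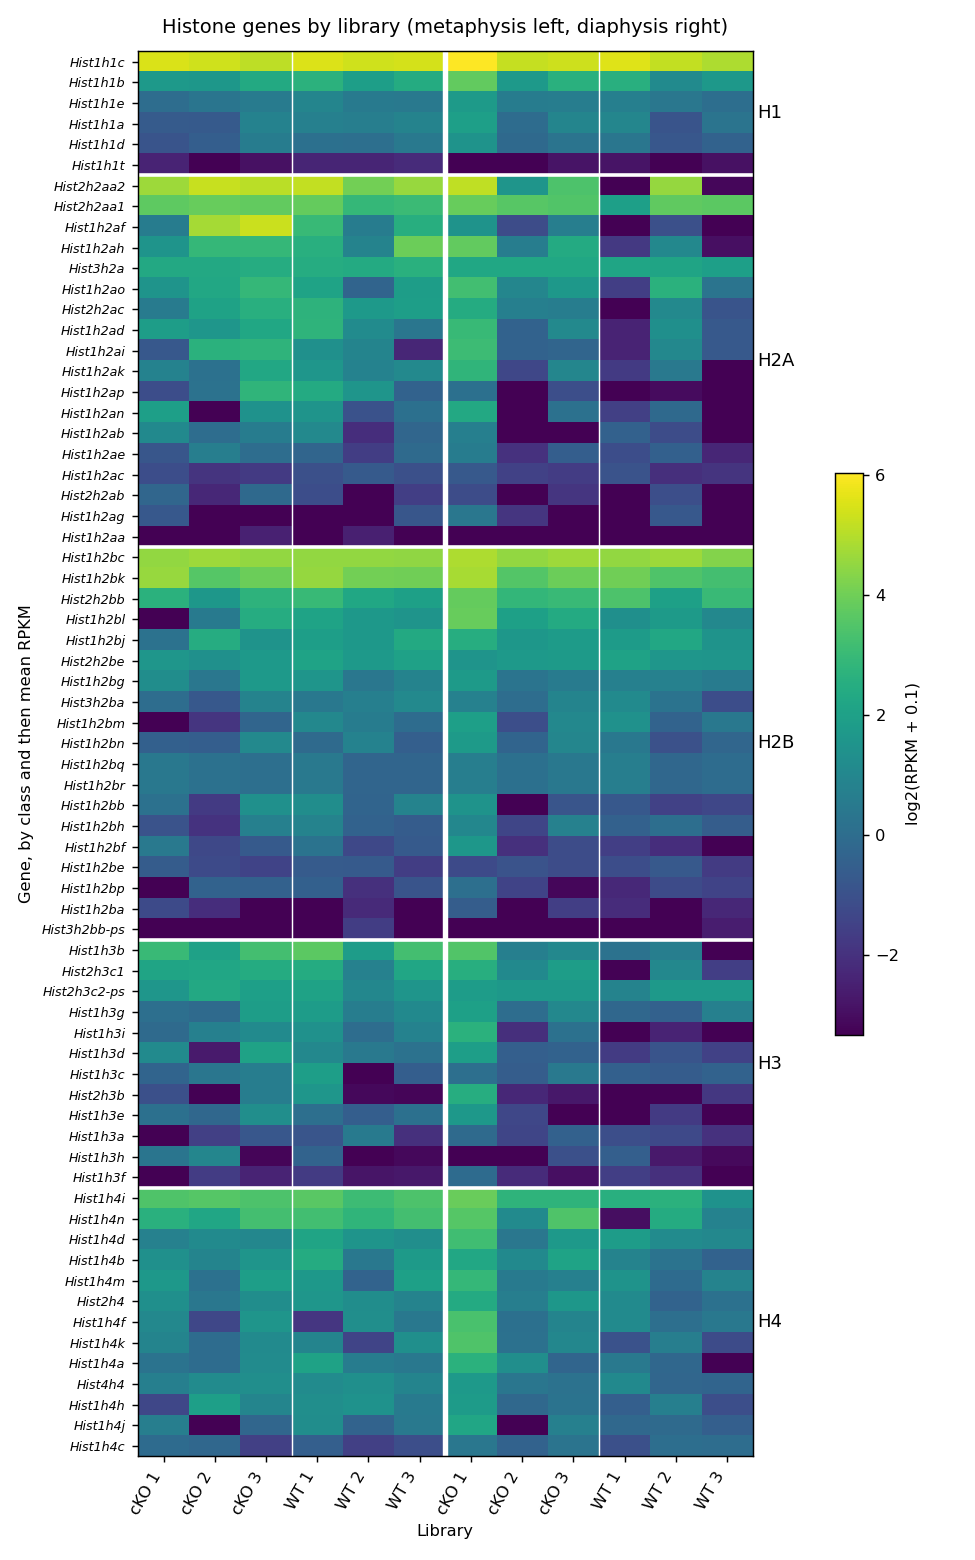
Each row is 1 of the 68 histone genes and each column 1 library, with cKO left of WT in each region; colour gives log2(RPKM + 0.1), and rows are ordered by class and mean RPKM. The diaphysis cKO 1 column is the brightest of its region for 56 of the 68 genes, while Hist1h2bc and Hist3h2a vary little across columns, with coefficients of variation of 10.8% and 11.9%.

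The members were then read from fits over all genes, which asked whether Dlx3 deletion changed gene expression in each region. A gene entered the fit where 3 of a region's 6 libraries held 1 RPKM or more. Its log2(RPKM + 0.1) was then tested with limma (2-sided), p-values were adjusted by Benjamini-Hochberg, and a gene was called at an adjusted p under 0.05. In the metaphysis 47 members passed the filter and 21 did not. None of the 47 was called, where 11.4% of the 12641 genes tested were called (7.51% higher in cKO and 3.89% lower). The lowest adjusted p among members, from limma, was 0.103 for Hist1h4d, whose log2 difference was -0.66 ± 0.23 (SE). At an unadjusted p under 0.05 there were 2 members, Hist1h4d and Hist2h2be, where 30.6% of all genes were under it. That count was 7 of 45 without cKO 3 (24.1% of all genes), 3 without cKO 2 (27.8%) and 2 without cKO 1 (31.2%). It was 4 without WT 1 (26.3%) or WT 2 (24.3%) and 1 without WT 3 (25.7%). Hist2h2be, an H2B gene known to give polyadenylated messages, had a log2 difference of -0.38 ± 0.15 (SE) and values of 2.92, 2.51 and 3.21 RPKM in cKO libraries, against 4.15, 3.22 and 3.96 RPKM in WT. Over all 68 members, 28 were higher and 40 lower in cKO on the mean log2 scale, with a median of -0.09. The median of all genes tested was -0.04, and 45.1% of them were higher in cKO. Leaving out single libraries turned the members' median, which was 0.07 without cKO 1, 0.05 without cKO 2 and 0.06 without WT 1, and -0.33 without WT 2. Of the 68 members, 0 lay above WT in all 3 cKO libraries, where 18.7% of the genes tested did. Below WT lay 5 of the 68, with 2 of the 5 among the 47 tested, where 18.4% of the genes tested did. Those 5 were Hist1h1t, Hist1h2ac, Hist1h2bm, Hist1h4d and Hist2h2be. Leaving out cKO 1 brought 1 of 43 members past the threshold, Hist1h2af (log2 2.99, adjusted p = 0.0466 by limma), where 1418 of 12517 genes were called. Leaving out WT 1 brought 1 of 42, Hist2h2aa1 (0.78, adjusted p = 0.0427 by limma), where 188 of 12538 genes were called.

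In the diaphysis 40 members passed the filter and 28 did not. None was called by limma, nor was any of the 12540 genes tested, so that 0% of all genes were called. At an unadjusted p under 0.05 there were 5 members, all higher in cKO, where 0.686% of all genes were under it. These were Hist1h2ah (log2 difference 3.49 ± 1.11, SE), Hist1h2bl (1.35 ± 0.47), Hist1h4b (1.58 ± 0.43), Hist1h4k (2.02 ± 0.87) and Hist2h3c1 (3.12 ± 0.99), with adjusted p = 1.00 for each by limma. The count rested on single libraries: it was 2 without cKO 1 (0.763% of all genes), 11 without cKO 2 (0.949%), 9 without WT 1 (4.57%), 11 without WT 2 (0.999%) and 3 without WT 3 (1.45%). Hist1h4b was at 4.78, 2.05 and 4.18 RPKM in cKO libraries, against 1.74, 1.08 and 0.675 RPKM in WT, so all 3 cKO libraries were above all WT libraries. Hist1h2bl, by contrast in scale, was at 14.3, 3.85 and 5.11 RPKM in cKO libraries, against 2.43, 3.36 and 1.94 RPKM in WT. Hist1h2ah was at 13.7, 1.45 and 5.10 RPKM in cKO libraries, against 0.193, 1.95 and 0.0320 RPKM in WT. Hist1h4k was at 10.8, 1.03 and 1.92 RPKM, against 0.418, 1.52 and 0.337 RPKM in WT. In these and in Hist2h3c1, every cKO library reached 1 RPKM, and of the WT libraries only WT 2 did. They thus met the filter through their cKO libraries, which favours genes higher in cKO.

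Of all 68 members, 62 were higher in diaphysis cKO on the mean log2 scale, 5 lower and 1 equal, where 50.7% of all genes tested were higher, and the median log2 difference was 0.71. Without cKO 1, 51 members were higher and 16 lower, with a median of 0.26, and 75.6% of all genes tested were higher, so the members' count then lay at the background. With WT 1 left out as well, 50 were higher and 17 lower, with a median of 0.36, where 66.8% of all genes were higher. The median of all genes tested was 0.00 with all libraries, 0.09 without cKO 1 and 0.07 without both. The members whose cKO libraries all lay above WT numbered 8 of 68 (11.8%), with 6 of the 8 among the 40 tested. Of the genes tested, 2.24% did so and 3.03% had groups apart in either direction. The 8 members were Hist1h2bl, Hist1h3b, Hist1h3d, Hist1h3i, Hist1h4b, Hist1h4i, Hist2h3c1 and Hist3h2a, and no member lay below, where 0.789% of the genes tested did. In Hist3h2a the groups were apart by little, at 4.63, 4.61 and 4.71 RPKM in cKO libraries, against 4.46, 4.26 and 3.82 RPKM in WT.

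The difference between the regions was tested directly, as the genotype difference in the metaphysis minus that in the diaphysis. Of 37 members tested, 0 were called by limma, and 0% of the 12321 genes tested were. Without diaphysis WT 1, 247 genes were called, none of them a member. At an unadjusted p under 0.05 there were 4 members, Hist1h2ah, Hist1h4b, Hist2h3c1 and Hist2h4, where 4.02% of all genes were under it. No member was under it without diaphysis cKO 1 (5.66% of all genes), without metaphysis WT 1 (3.32%) or without diaphysis WT 3 (1.42%). With a metaphysis library left out the count was 6 without cKO 3 (3.33% of all genes) and 3 without WT 2 (2.26%). It was 2 without cKO 1 (4.84%), cKO 2 (2.81%) or WT 3 (2.47%). With a diaphysis library left out it was 11 without cKO 2 (4.67% of all genes) and 3 without cKO 3 (3.4%). It was 7 without WT 1 (23.9%) and 8 without WT 2 (2.61%). In the fit of all libraries the 4 members' differences between regions were -3.50, -1.85, -2.67 and -1.48 on the log2 scale. Hist1h2ah and Hist2h3c1 met the diaphysis filter through their cKO libraries, as given above.

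The height of diaphysis cKO 1 was shared across members to unequal degrees. It was the highest diaphysis library for 56 of the 68 members, where 10.1% of all genes tested were highest in it. Among all 12540 genes tested, the median ratio of cKO 1 to the mean of the other 5 diaphysis libraries was 0.856. Only 180 genes reached a ratio of 2 (1.44%), and 29 of those 180 were members. Hist1h3i, an H3 gene, was at 6.20 RPKM in cKO 1 and at 0.142 and 1.01 RPKM in the other cKO libraries, against at most 0.0931 RPKM in WT. Its ratio of 24.9 was the highest among members that averaged 1 RPKM or more. Hist1h3b had a ratio of 9.16, Hist2h2aa2 of 4.80, Hist1h4i of 2.66 and Hist1h2bk of 2.25. Lower ratios were found for Hist1h1c (1.72), Hist1h2bc (1.28), Hist3h2a (1.06) and Hist2h2be (0.853). Of these, Hist1h1c lay above the 95th percentile of all genes tested, 1.41, and Hist2h2be lay at their median.

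Spread and the annotated 3′ end went together. Among members that averaged 1 RPKM or more, the 36 with a short 3′ end had a median coefficient of variation over the 12 libraries of 72.4%, from 28.8% to 172%. The 12 with a long 3′ end had a median of 35.4%, from 10.8% to 116%. Within the metaphysis alone, a measure without diaphysis cKO 1, the medians were 52.7% and 26.0%. The median ratio in diaphysis cKO 1 was 3.75 for the 36 members and 1.79 for the 12, and cKO 1 was the highest diaphysis library for 34 of the 36 and for 8 of the 12. The 12 include both Hist1h2bq and Hist1h2br, which count as 1 measurement and were highest in WT 1. With that pair counted once, the middle coefficient of variation of the long group was 44.7%, or 27.7% within the metaphysis. Its middle ratio was then 1.87. The members with a long 3′ end were also somewhat higher, with a median level of 2.88 RPKM against 2.14 RPKM, and the part of level, length and shared copies in the spread was not tested. Hist1h2ai and Hist1h3d, both with a long 3′ end, were among the exceptions, with ratios of 10.6 and 8.38. The summed level of the 51 members with a short 3′ end was 312, 73.3 and 125 RPKM in diaphysis cKO libraries, against 71.2, 107.6 and 54.3 RPKM in WT. That of the 15 with a long 3′ end was 149, 83.3 and 93.6 RPKM in cKO, against 96.9, 80.2 and 68.3 RPKM in WT.

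**Figure D3:**
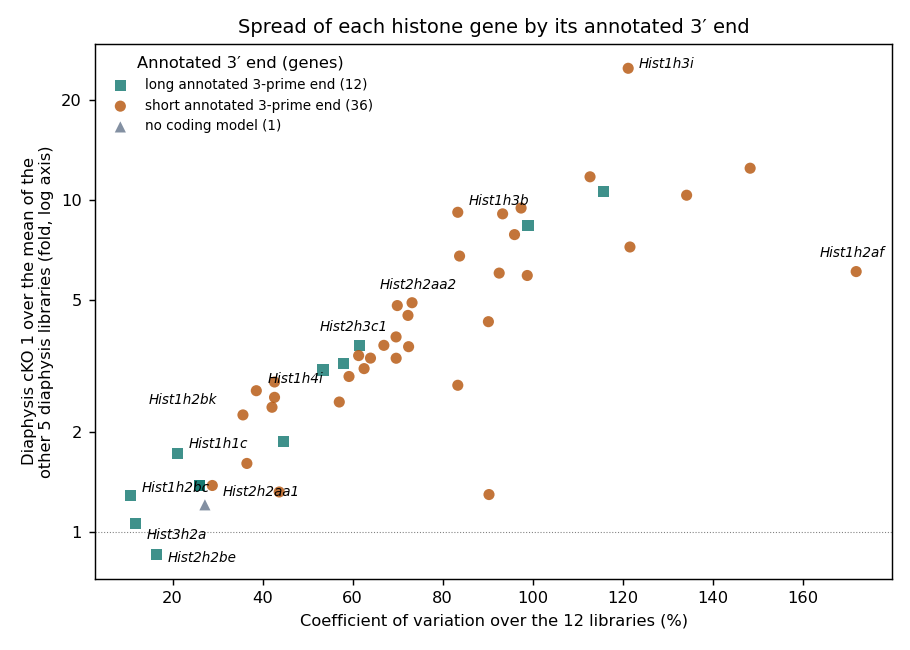
For the 49 histone genes that averaged 1 RPKM or more, the x axis gives the coefficient of variation over the 12 libraries in percent and the y axis the ratio of diaphysis cKO 1 to the mean of the other 5 diaphysis libraries, on a log axis; squares are genes with a long annotated 3′ end, circles genes with a short one, and the triangle a gene with no coding model. Hist1h2bc, Hist3h2a, Hist2h2be and Hist1h1c sit at the low left, and the upper right holds mostly circles; both axes include diaphysis cKO 1.

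A list of 16 other RNAs was drawn up as RNAs that end without an ordinary poly(A) tail, and 9 of them were in the diaphysis table. Whether every form of each RNA, Neat1 among them, lacks a tail was not tested. Of the 9, 5 were highest in the same library, cKO 1, among the 6 of the diaphysis and 4 were not. The 5 were Rpph1, Rmrp, Rnu12, Scarna2 and Rnu11. Rpph1, the RNA of ribonuclease P, was at 38.8, 3.06 and 0.484 RPKM in diaphysis cKO libraries, against 11.0, 0.834 and 0.719 RPKM in WT. Rmrp, the RNA of the related ribonuclease MRP, was at 9.96, 1.17 and 0.134 RPKM in cKO libraries, against 1.93, 0.0861 and 0 RPKM in WT. cKO 1 was the highest and WT 1 the second highest library for both. Rnu12, a small nuclear RNA of the minor spliceosome, was at 3.58 RPKM in cKO 1 and at most at 0.506 RPKM in the other 5, and Scarna2 was at 5.28 RPKM in cKO 1 and listed at 0 in the other 5. Rnu11, another small nuclear RNA of that spliceosome, was at 0.995 RPKM in cKO 1 and at most at 0.219 RPKM in the other 5. The other 4 RNAs went differently. Terc, the telomerase RNA, was listed at 0 in cKO 1, and Scarna13 was lowest there, at 0.197 RPKM, with 0.472 to 0.937 RPKM in the other 5. Malat1, a long nuclear RNA, was at 73.4 RPKM in cKO 1 and at 77.3 RPKM in WT 1. Neat1, also long and nuclear, was at 229 RPKM in cKO 1 and at 232 RPKM in WT 3. In the metaphysis Rpph1 was between 0.598 and 2.91 RPKM and Rmrp between 0.147 and 1.84 RPKM. Rnu12 was at most at 0.633 RPKM there and Scarna2 at most at 1.41 RPKM. Rnu11 reached 1.32 RPKM in metaphysis WT 1, above its value in diaphysis cKO 1. The 5 members known to give polyadenylated messages, Hist1h1c, Hist1h2ac, Hist1h2bc, Hist1h2be and Hist2h2be, summed to 98.5, 63.6 and 69.3 RPKM in diaphysis cKO libraries, against 75.2, 64.7 and 52.0 RPKM in WT. Of these, Hist1h2ac was between 0.141 and 0.526 RPKM and Hist1h2be between 0.212 and 0.559 RPKM in all 12 libraries. How much untailed RNA each library took up was not tested.

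**Figure D4:**
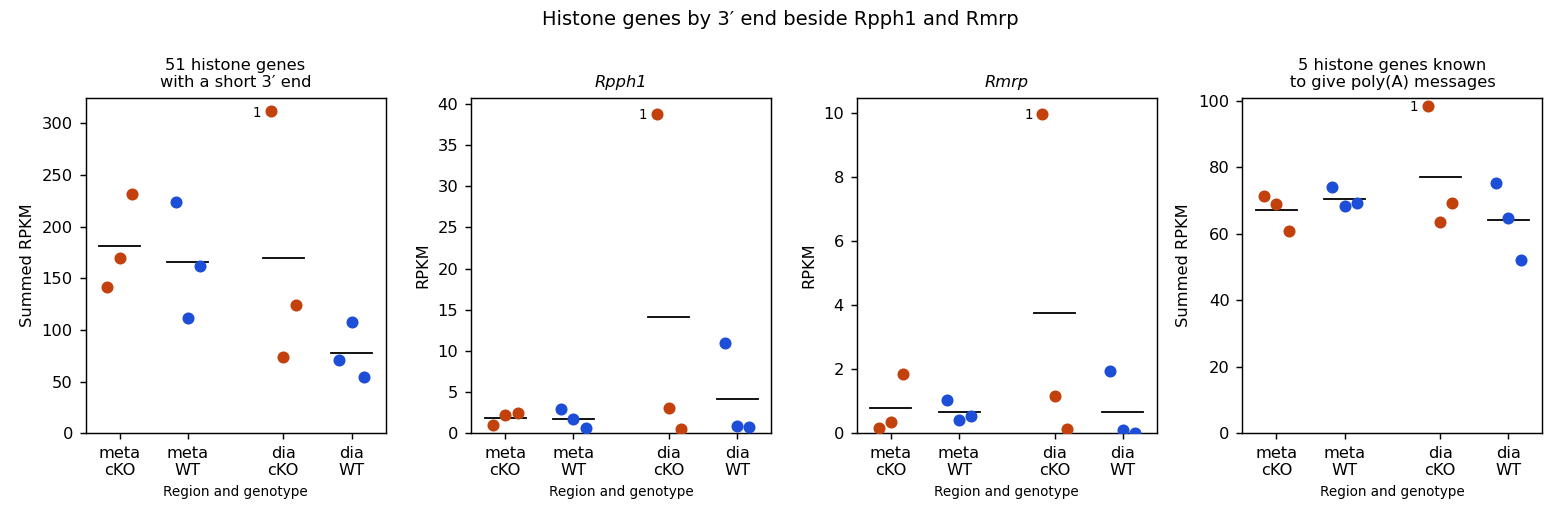
Values in each library (points; orange cKO, blue WT) with the group mean as a bar: summed RPKM of the 51 histone genes with a short annotated 3′ end, RPKM of Rpph1 and Rmrp, and summed RPKM of the 5 histone genes known to give polyadenylated messages. The point marked 1 is diaphysis cKO 1, at 312, 38.8, 9.96 and 98.5 RPKM in the 4 panels.

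The sum of all histone genes did not follow the genes of S phase in the metaphysis. By class, the ratio of cKO to WT means was 0.885 for H1, 0.924 for H2B and 0.887 for H4. It was 1.02 for H3 and 1.43 for H2A, and the groups overlapped in every class. A list of 28 genes, called S phase genes here, held polyadenylated messages of replication, nucleotide supply and the cell cycle, Mki67 among them. These genes summed to 1024, 651 and 981 RPKM in metaphysis cKO libraries, against 1342, 1420.4 and 1407 RPKM in WT, with no overlap. All 28 had a negative log2 difference, 13 were called lower by limma and 0 higher, and the median was -0.69, where 3.89% of all genes were called lower. Pcna, the sliding clamp of DNA polymerase, was at 135, 98.4 and 140.5 RPKM in cKO libraries, against 189.5, 197 and 200.5 RPKM in WT (log2 -0.67 ± 0.14 SE, adjusted p = 0.0296 by limma). Mki67, a marker of cycling cells, was at 71.1, 37.9 and 58.1 RPKM in cKO libraries, against 85.7, 97.0 and 91.3 RPKM in WT, and did not pass the threshold. None of the 13 calls was left without cKO 3, WT 1, WT 2 or WT 3, with no filter on low values or with 1 fit of all 12 libraries, and all 28 differences stayed negative there. In the diaphysis 0 of the 28 were called, with a median of -0.01.

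Slbp, which binds the stem-loop, fell in the metaphysis to 74.8, 55.9 and 76.5 RPKM in cKO libraries, against 108, 117 and 120.1 RPKM in WT (log2 -0.75 ± 0.13 SE, adjusted p = 0.0192 by limma). Eri1, an exonuclease that acts on the same stem-loop, was at 9.32, 8.0 and 9.60 RPKM in cKO libraries, against 14.3, 13.3 and 13.9 RPKM in WT (log2 -0.62 ± 0.10 SE, adjusted p = 0.0161 by limma). They were the 2 genes called of 15 tested in a list of 16 histone RNA processing genes, a share near the 11.4% of all genes called in either direction. Both were lower, where 3.89% of all genes were called lower. Neither call held without cKO 3, WT 1 or WT 2, where the adjusted p by limma was 0.0521 to 0.0701. Without WT 3 the Slbp call was lost as well (0.0597) and that of Eri1 held (0.0466). Npat, the S phase activator of histone transcription, was at 3.61, 2.81 and 3.33 RPKM in cKO libraries, against 3.20, 3.51 and 3.79 RPKM in WT. Of 11 histone chaperones, which carry histones to DNA, 4 fell and 0 rose, where 3.89% of all genes were called lower. These were Asf1b, Chaf1a, Rbbp4 and Nasp, with log2 differences of -0.70, -0.62, -0.51 and -0.58, and none of the 4 calls was left without cKO 3, without any 1 WT library or with 1 fit of all 12 libraries. With no filter on low values 2 of the 11 were called.

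Replication-independent variants can be made outside S phase, and most of their messages are polyadenylated. Of 11, H3f3a, H3f3b and H2afz stood above every member in all 12 libraries, while H2afj, H2afy2 and H1fx stood below Hist1h1c in each. H3f3a was at 458, 404 and 476 RPKM in metaphysis cKO libraries, against 554, 567 and 570.1 RPKM in WT, and H3f3b at 243, 235 and 238 RPKM, against 281, 284 and 324 RPKM in WT. H2afz fell to 412, 313 and 352 RPKM in cKO libraries, against 539, 509 and 491 RPKM in WT (log2 -0.52 ± 0.12 SE, adjusted p = 0.0358 by limma). H2afy2, which encodes a macroH2A, rose to 7.88, 8.24 and 8.27 RPKM in cKO libraries, against 4.41, 4.22 and 5.01 RPKM in WT (log2 0.83 ± 0.10 SE, adjusted p = 0.0108 by limma). These were the 2 called of the 11 variants, where 11.4% of all genes were called, a share not far from theirs. The H2afz call was lost when any library but cKO 1 was left out, with adjusted p of 0.0583 to 0.106, with no filter on low values and with globin left out of the scaling (0.0535). The H2afy2 call was lost without cKO 3 (0.0507). With 1 fit of all 12 libraries none of Slbp, Eri1, H2afz and H2afy2 was called by limma, at adjusted p = 0.232, 0.232, 0.240 and 0.301. In the diaphysis 0 of the 11 were called. H2afx of this list was at 96.3, 44.6 and 63.2 RPKM in diaphysis cKO libraries, against 60.1, 61.3 and 29.9 RPKM in WT. The sum of the 11 in diaphysis cKO 1 was 0.984 times the mean of the other 5 diaphysis libraries. Erythroid genes summed to 34438 to 44354 RPKM in metaphysis cKO libraries, against 45893 to 52118 RPKM in WT, with 4 of 11 called lower. B lymphoid genes summed to 208 to 258 RPKM, against 313 to 394 RPKM in WT, with 5 of 10 called lower, and no gene of either list was at 0. Megakaryocyte genes summed to 364 to 501 RPKM, against 608 to 759 RPKM in WT, with 2 of 7 called lower. Neutrophil sums overlapped, with 0 of 9 genes called. The sums of bone and vessel markers went the other way, with no overlap between groups. Osteocyte genes summed to 395 to 574 RPKM in cKO, against 230 to 357 RPKM in WT, but of 5 tested 0 were called higher and 1 lower. Osteoblast genes summed to 23159 to 24841 RPKM in cKO libraries, against 14995 to 19309 RPKM in WT, with 5 of 9 called higher. Osteoclast genes summed to 3991 to 4547 RPKM in cKO, against 2119 to 2688 RPKM in WT, with 5 of 6 called higher. Chondrocyte genes summed to 1259 to 2012 RPKM in cKO, against 614 to 829 RPKM in WT, with 6 of 8 called higher. Endothelial genes summed to 132 to 138 RPKM in cKO, against 87.6 to 93.3 RPKM in WT, with 4 of 6 called higher. Muscle sums overlapped, at 2131 to 8282 RPKM in cKO, against 4850 to 7269 RPKM in WT, with 1 of 7 called lower. Over all genes tested, 7.51% were called higher and 3.89% lower. All calls fell from 1441 genes to 105 without cKO 3, 188 without WT 1 and 243 without WT 2. With 1 fit of all 12 libraries 7 were left. How many marker calls remained in those fits was not examined. The part of these cell types in the differences was not tested. In the diaphysis the S phase sum was highest in WT 1, at 2250 RPKM, where the H2A sum of 10.7 RPKM was the lowest of the 12 libraries and the H1 sum of 57.9 RPKM the second highest of its region.

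**Figure D5:**
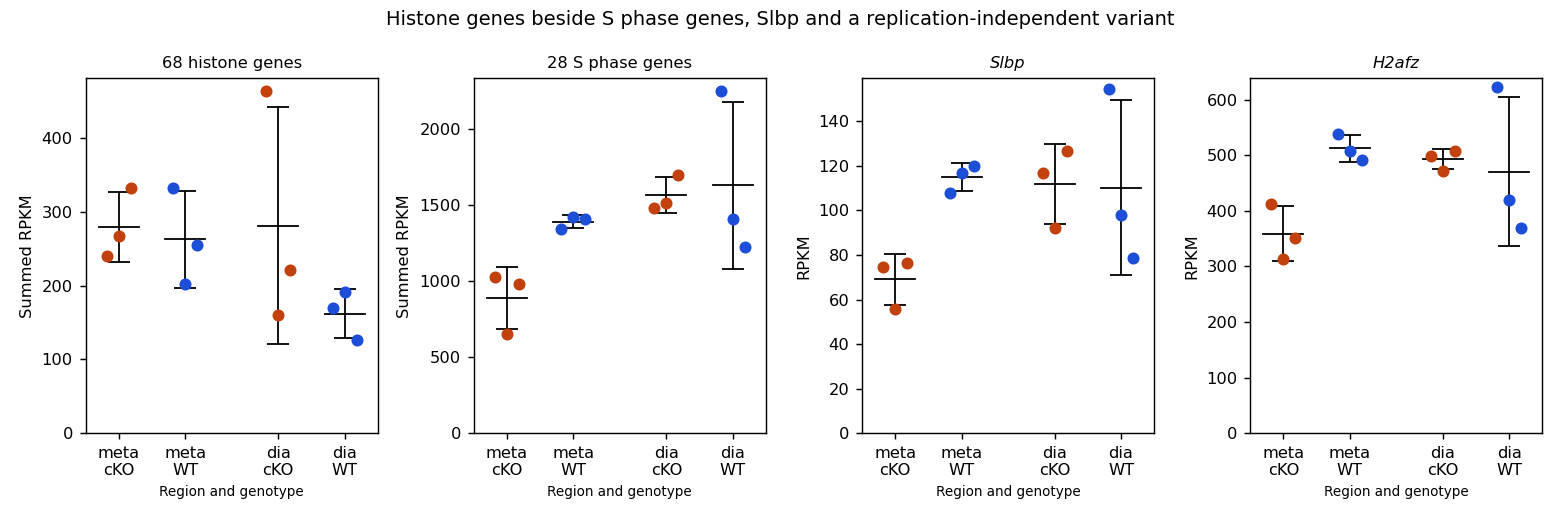
Values in each library (points; orange cKO, blue WT) with the group mean and SD (n = 3 each), for the summed RPKM of the 68 histone genes and of 28 S phase genes and for the RPKM of Slbp and H2afz. In the metaphysis the groups are apart for the S phase genes, Slbp and H2afz and overlap for the histone genes, at 239.8 to 332 RPKM in cKO and 202 to 332 RPKM in WT.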

How the data were processed

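RNA from 12 libraries, 3 in each of 4 groups of region and genotype, was analysed. Per the file headers, the authors deposited RPKM per RefSeq transcript, in 1 table per region. The tools listed by the submitters' processing notes, without roles, are Bowtie 0.12.7.0, CASAVA 1.8.2, Partek 6.6 and TopHat 1.3.2, with the build mm9; how reads shared by near-identical histone copies were divided is not given in the sources used here, and it bears on every single copy. Transcripts were summed per symbol. Of the 77 member rows of each table, 8 repeat a transcript under a versioned accession and were kept in the sum.

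Genes with 1 RPKM or more in 3 of 6 libraries were tested on log2(RPKM + 0.1) with limma 3.58.1 (R 4.3.3, empirical Bayes with a trend) and Benjamini-Hochberg adjustment over all genes, at a threshold of 0.05, and the fit was tested on simulated data. The difference between regions came from 1 fit of all 12 libraries. Nothing in the labels states that each library is a different mouse; the p-values reflect only how far these samples scatter, which may be technical.

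Depth was estimated from the spacing of low RPKM values; 70.3% to 75.2% of those lay within 0.1 of a whole read, too few to rebuild counts. Stem-loops were read from the mm9 genome with the GENCODE vM1 models, and promoters from RefSeq. Tables and plots were made with Python 3.11.15, pandas 2.3.3 and matplotlib 3.10.9.

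Members with values per library are the 3 highest of each class, those past the threshold and those listed as polyadenylated; others were named after their values were seen. The members and gene lists were chosen with earlier results of these data known. Other pseudocounts, filters, scalings, transcript choices and sets of libraries were tried.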

Additional observations from a re-analysis of the deposited data

How the results depend on the processing

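The number of members called in the metaphysis ranged from 0 to 1 as single libraries were left out, and it was 0 under every other alternative run. It was 0 in the diaphysis under each alternative run there, and 0 between regions under other pseudocounts and scalings and with each library left out, the only alternatives run for that comparison. Leaving out single libraries turned the mean log2 difference of 32 of the 68 members in the metaphysis and of 19 in the diaphysis. Of the 18 members named by the rule, no scaling, pseudocount, filter or transcript choice turned one that was tested. In the metaphysis, leaving out single libraries turned 5 of those tested, which ranged from -0.46 to 0.056 for Hist1h2bk, -0.69 to 0.22 for Hist1h3b, -0.27 to 0.28 for Hist2h2bb, -0.063 to 0.23 for Hist1h4i and -0.065 to 0.76 for Hist2h3c1. In the diaphysis it turned 4, which ranged from -0.32 (without cKO 1) to 1.06 for Hist1h4d, -0.15 to 0.11 for Hist2h2be, and, lowest without WT 1, -0.051 to 0.85 for Hist2h2aa1 and -0.028 to 0.41 for Hist2h3c2-ps. With both cKO 1 and WT 1 left out, a choice made after seeing the data, the log2 differences were -0.075 for Hist1h4d, -0.16 for Hist2h2aa1, 0.18 for Hist2h2be and -0.084 for Hist2h3c2-ps. The cause of these turns was not tested. No paired analysis was run, because the identification numbers in the titles differ between all 12 libraries and the labels name no pairs. Calls over all metaphysis genes ranged from 7 to 1558 across the alternatives, lowest with 1 fit of all 12 libraries. The calls of the 28 S phase genes fell to 0 with no filter on low values and to 3 with globin left out of the scaling. Depth limits members under 1 RPKM most, and the division of reads between copies limits each single copy.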
